A study of Drosophila melanogaster with 9 samples.

Results

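Genes that differed between Blimp-1 RNAi and control were examined in retinas dissected with optic lobes, and without the rest of the brain, from Drosophila melanogaster pupae. The authors' deposited tables list 373 genes for this comparison, of 904 distinct gene entries in the series, and every row of both RNAi tables was taken. RNAi animals carried the lGMR GAL4 driver with a Blimp-1 RNAi construct (lGMR GAL4>Blimp-1 RNAi), and control animals carried the driver alone (lGMR GAL4/+), with no RNAi insert labelled. The long GMR promoter drives GAL4 in cells of the developing eye, so the RNAi construct was active in only some of the cells sampled, and both groups carried the driver. White prepupae were aged for 48 h at 25 °C, which gives the age after puparium formation (APF), and libraries were stranded mRNA libraries from 250 ng of total RNA. Each group had 3 biological replicates, here called RNAi 1 to 3 and control 1 to 3. A further group of 3 libraries, with lGMR GAL4 driving UAS Blimp-1, is called overexpression and is used only for values set beside those of RNAi.

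Blimp-1 is a zinc finger transcriptional repressor that the moulting hormone ecdysone induces, and it is best known in the fly for delaying the nuclear receptor gene ftz-f1 during the prepupal period. In the pupal eye, non-neuronal cells secrete an apical matrix and then a chitin-containing cuticle that forms the corneal lens of each facet, while pigment cells and photoreceptors make screening pigments and the retinoid chromophore of the visual pigments. In bulk tissue of this kind, fewer cells of a type and less RNA per cell cannot be told apart.

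Both tables hold only genes that the authors had already selected, with a change of 2-fold or more and an adjusted p below 0.05. The differences between RNAi and control are therefore descriptions of selected genes and are not tests. Of the 373 genes, 189 were listed lower in RNAi (50.7%) and 184 higher (49.3%). The values are normalized counts, that is, read counts divided by 1 scaling factor per library, and folds are ratios of group means with n = 3 in each group. Normalized counts of the listed genes summed to 1225798, 1158538 and 960462 in the RNAi libraries, against 925498, 927691 and 912400 in the control libraries, and total depth is unknown.

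Blimp-1 itself is absent from both RNAi tables, so no fall of 2-fold or more at an adjusted p below 0.05 was listed for it. Its level in the RNAi libraries is unknown here, and the knockdown could not be checked on its target. In the control libraries, read from the overexpression table, Blimp-1 had 874, 888 and 748 normalized counts. Few genes that define cell types were listed. None of 15 glial, 32 neuronal and 11 fat body markers had an entry, and 1 of 19 hemocyte markers did, the matrix gene Ppn. Of 39 genes for phototransduction and the rhabdomere, the light-sensing membrane of photoreceptors, 3 had an entry. An absent entry gives no level, so the dissected tissue could not be checked on these lists.

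The changes were mostly of a few fold, with long tails in both directions. Among lower genes the median fall was 3.27-fold (quartiles 2.52 and 5.18), and among higher genes the median rise was 3.55-fold (quartiles 2.66 and 6.78). A change of at least 4-fold was seen in 151 genes (40.5% of those listed), of which 70 were lower and 81 higher. At 16-fold or more there were 7 lower and 18 higher genes, and at 32-fold or more 2 lower and 7 higher. Genes nearest the 2-fold limit were CG17264, dyl and trol among lower genes, at 2.04-, 2.06- and 2.07-fold, and CG40485, KFase and Cda4 among higher genes, at 2.07-, 2.08- and 2.08-fold. The tables hold no gene on the far side of that limit.

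In all 373 genes (100%) the 3 RNAi and 3 control libraries did not overlap. Limma on log2(normalized count + 1) also called all 373 at an adjusted p under 0.05 (100%), with a largest adjusted p of 0.0079. Neither count supports the list, because the genes had been selected on these libraries. The spread within groups also bears on both counts. No gene had a coefficient of variation over 50% in either group, with maxima of 49.4% in RNAi and 49.9% in control, while among the 710 genes listed for overexpression 35 passed 50% in overexpression and 87 did in control. Whether the RNAi tables were filtered on spread was not stated in the sources used here.

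**Figure D1:**
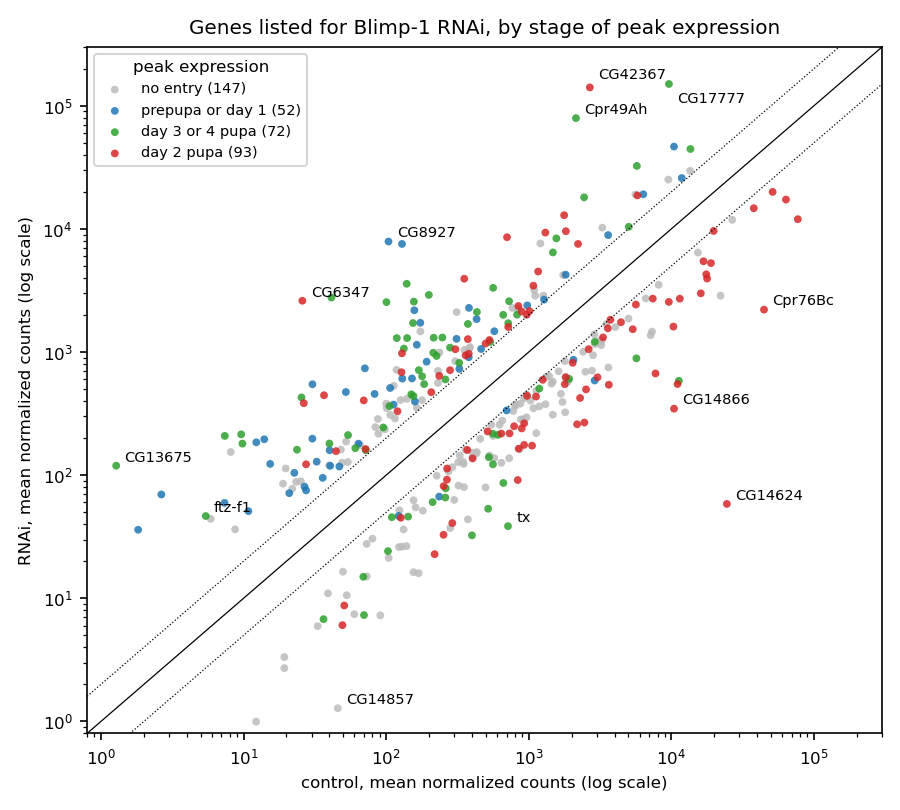
Mean normalized counts in RNAi (vertical axis) against control (horizontal axis), both on log scales, for the listed genes with counts in both groups. Each point is a gene, coloured by the deposited stage of peak expression, the solid line marks equal values and the dotted lines 2-fold changes. CG14624 stands farthest below the lines, and CG42367 and CG17777 reach the highest RNAi means.

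The shares of normalized counts within the listed genes follow from how the genes were listed and are given as a description. Genes listed higher held 83.6%, 83.7% and 78.7% of all normalized counts of listed genes in the RNAi libraries, against 20.5%, 15.7% and 17.2% in the control libraries. A pair of short genes made up much of this, CG42367, classed by the authors as a cuticle protein, and CG17777, of unknown function. Together they held 25.1%, 30.0% and 22.8% in the RNAi libraries, against 1.7%, 1.1% and 1.2% in the control libraries. Per kilobase of annotated exon, the RNAi mean was 287489.9 normalized counts for CG42367 and 220942 for CG17777. On the same scale, CG11997, a lower gene classed as an enzyme, had the highest control mean of the lower genes described here, at 50527.

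Among 7 genes that fell 16-fold or more with counts in both groups, 5 were abundant in control, and 4 of these 5 had a deposited peak of expression on day 2 of pupal life. CG14624 (FBgn0040357, dm6 X, 1206737 to 1207555), of unknown function, had 44.6, 75.3 and 55.3 normalized counts in the RNAi libraries, against 33099.6, 16212 and 24223 in the control libraries. Counts were low in every RNAi library and high in every control library, with control 2 the lowest of these. Its mean was 419.8-fold lower, with an adjusted p of 3.06e-214 in the authors' deposited table. CG14866 (dm6 3R, 15316471 to 15318285), classed as a cell surface protein, had 349.6, 357 and 334 normalized counts in the RNAi libraries, against 10788, 10477 and 10053 in the control libraries. The libraries of each group lay close together, and the fall was 30.1-fold, the most even among the large ones described here. Cpr76Bc (dm6 3L, 19520945 to 19527272), a cuticle protein with a chitin-binding domain of the Rebers and Riddiford type, had 1403, 2458 and 2767 normalized counts in the RNAi libraries, against 45750.2, 44189 and 44029 in the control libraries, a 20.2-fold fall, with RNAi 1 the lowest library. CG15506, of unknown function, had 619, 352 and 677 normalized counts in the RNAi libraries, against 10592, 11576 and 10975 in the control libraries. CG34382, also of unknown function, had 771, 472 and 509 normalized counts in the RNAi libraries, against 16682, 8227 and 8948 in the control libraries, with RNAi 1 and control 1 the highest of their groups. These falls were 20.1- and 19.3-fold. The other two, CG14857 and tx, fell 35.8- and 18.6-fold and are described with the transporters and transcription factors. A Blimp-1 site mark stood on the 5 abundant genes, not on CG14857 or tx, and on none of the 4 lower genes listed at 0 in RNAi.

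Abundant enzymes fell too. CG11997 (dm6 3R, 9177517 to 9179098) had 11711, 13727 and 10519 normalized counts in the RNAi libraries, against 51163, 96499.7 and 83500.3 in the control libraries, with control 1 the lowest control library. It fell 6.43-fold. The cytochrome P450 gene Cyp303a1, known in flies for its part in sensory bristle development, had 368, 276 and 133 normalized counts in the RNAi libraries, against 2863, 1352 and 2335 in the control libraries. RNAi 3 was the lowest RNAi library, and the mean fell 8.43-fold. CG14892, another enzyme by the authors' class, averaged 669.9 ± 145 normalized counts in RNAi, against 7739 ± 708 in control (SD, n = 3), an 11.6-fold fall. Tep3, of the thioester proteins that act in immunity, averaged 53.4 ± 18.8 normalized counts in RNAi, against 519 ± 138 in control (SD, n = 3), a 9.73-fold fall.

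**Figure D2:**
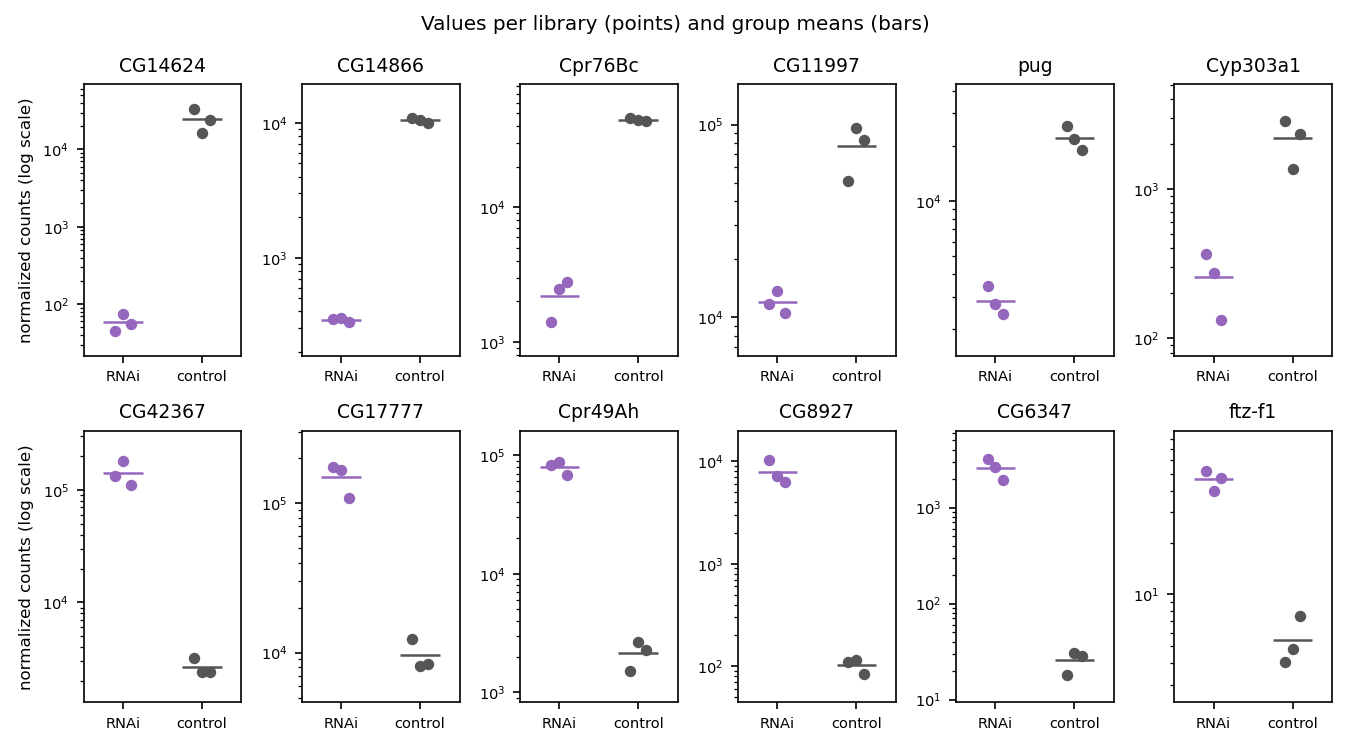
Normalized counts (vertical axes, log scale, a separate range for each gene) of 12 listed genes in the RNAi libraries and the control libraries. Points are libraries 1 to 3 from left to right and bars are group means. The upper row holds genes listed lower and the lower row genes listed higher, and in each panel the groups do not overlap, as in all listed genes.

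Most of the largest rises were in genes with few counts in control. CG6347 (dm6 2R, 13836419 to 13839363), now named CtsL2 and encoding a cathepsin L-like protease, had 3229, 2678 and 1921 normalized counts in the RNAi libraries, against 18.1, 30.7 and 28.7 in the control libraries. Every control library was low and every RNAi library high, a 101-fold rise, with an adjusted p of 7.48e-120 in the authors' deposited table. CG13675, classed as a cuticle protein, had 183, 87.4 and 87.6 normalized counts in the RNAi libraries, against 0.670, 1.92 and 1.25 in the control libraries. Its 93.3-fold rise rests on a control mean of 1.28, and RNAi 1 held more than 2 times the counts of RNAi 2 and RNAi 3. CG32037, of unknown function, had 3916, 2420.2 and 1972 normalized counts in the RNAi libraries, against 28.9, 48.9 and 46.2 in the control libraries, a 67.0-fold rise. CG14752, of unknown function, had 10808, 6789.7 and 5046 normalized counts in the RNAi libraries, against 156, 113 and 119 in the control libraries, a 58.4-fold rise, with RNAi 1 the highest. The neighbouring gene CG42326 was also listed higher, with a log2 ratio of 4.48.

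In 9 genes 1 group was listed at 0 in all 3 libraries. The RNAi libraries were at 0 for CG30289, CG9287, CG7542 and CR45386, and the highest control mean among these was 15.6 normalized counts, in CG30289. The control libraries were at 0 for CG31683, CR42653, CR43669, CG11349 and the odorant-binding protein gene Obp56g, and the highest RNAi mean was 15.6, in CG31683. Such low counts give no fold.

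Cuticle proteins formed the class most tilted toward higher genes among those with at least 20 members. By the authors' classes 18 were higher and 7 lower, against 184 and 189 over all listed genes. The higher members changed more than listed genes at large, with a median rise of 6.64-fold beside 3.55-fold over all higher genes, and 13 of 18 rose at least 4-fold. Of these 18, 11 had a deposited peak on day 3 or 4, 2 on day 2 and 4 earlier. CG42367 (dm6 2L, 9930580 to 9931131) had 133011, 179709 and 109889.95 normalized counts in the RNAi libraries, against 3224, 2406 and 2416 in the control libraries, a 52.5-fold rise. Cpr49Ah had 82766, 87041 and 68222 normalized counts in the RNAi libraries, against 1512, 2648 and 2269 in the control libraries, a 37.0-fold rise. In both genes the lowest RNAi library, RNAi 3, stood far above the highest control library. CG8927 had 10309, 7132 and 6243 normalized counts in the RNAi libraries, against 111, 116 and 84.8 in the control libraries, a 76.0-fold rise, with RNAi 1 the highest. TwdlE, of the Tweedle family that shapes larval and pupal cuticle, averaged 46616 ± 10997 normalized counts in RNAi, against 10435 ± 1774 in control (SD, n = 3). Cpr50Cb, CG13643 and Cpr92F were 28.2-, 25.7- and 16.4-fold higher. Vajk4 (listed as CG30101), of a cuticle protein family, had 64184, 33556 and 35891 normalized counts in the RNAi libraries, against 20446, 9162 and 11219 in the control libraries, with RNAi 1 and control 1 the highest of their groups.

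The 7 cuticle proteins listed lower were led by Cpr76Bc. Cpr50Ca, which lies near Cpr50Cb on 2R, had 177, 152 and 199.8 normalized counts in the RNAi libraries, against 1246, 517 and 1020.4 in the control libraries, with control 2 the lowest control library. It was 5.27-fold lower, while Cpr50Cb rose. Cpr51A had 46.5, 42.5 and 51.0 normalized counts in the RNAi libraries, against 65.8, 128 and 173 in the control libraries, and control 1 lay close to the RNAi libraries. The other 4 were obst-E, obst-B, CG1136 and Arc2, at 3.10-, 2.43-, 3.09- and 2.51-fold lower. Arc2 is known as a capsid-forming relative of retrotransposon Gag proteins, so its class in the tables differs from that role.

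Genes that bind, modify or deposit chitin, the polymer of cuticle, had 7 higher and 2 lower entries among 41 genes on the list, beside 49.3% higher over all listed genes, and the difference in direction was not tested. The chitin deacetylase gene verm had 29663, 25339 and 22669 normalized counts in the RNAi libraries, against 15918, 9065 and 10519.6 in the control libraries. The rise was 2.19-fold. The chitin-binding protein gene obst-A had 20427, 18879 and 18004 normalized counts in the RNAi libraries, against 8700.5, 4617 and 5754 in the control libraries. Its neighbour on the X chromosome, Peritrophin-A, had 4223, 3295 and 2444 normalized counts in the RNAi libraries, against 869, 348 and 472 in the control libraries. These rises were 3.005- and 5.90-fold, and control 1 was the highest control library in both. The chitin-binding protein gene Gasp averaged 29659 ± 4555 normalized counts in RNAi, against 13543 ± 2032 in control (SD, n = 3). The gene rebuff (reb), needed for chitin deposition in the trachea and placed by the authors among transcription factors, had 218, 171 and 166 normalized counts in the RNAi libraries, against 18.8, 10.6 and 7.48 in the control libraries, a 15.05-fold rise. Idgf6, a chitinase-like secreted protein gene, and the deacetylase gene Cda4 were 3.46- and 2.08-fold higher. The lower pair, obst-B and obst-E, belong to the same chitin-binding family as obst-A.

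Some genes of the cuticle surface and of lipid metabolism were picked out from both directions, with no list behind them. The ABC transporter genes snu (listed as CG9990) and osy (listed as CG33970) and the extracellular protein gene snsl (listed as CG2837) act in the barrier of fly cuticle against water loss. For snu there were 1383, 756 and 1038 normalized counts in the RNAi libraries, against 577, 398 and 415 in the control libraries. For osy there were 38.1, 46.1 and 68.9 normalized counts in the RNAi libraries, against 9.41, 10.6 and 12.5 in the control libraries. Values for snsl were 338, 444 and 311 normalized counts in the RNAi libraries, against 98.1, 128 and 91.1 in the control libraries. The rises were 2.28-, 4.72- and 3.45-fold. The fatty acyl-CoA reductase gene wat, known from the gas filling of the trachea, was 4.20-fold higher. The desaturase family gene CG9747 and the elongase gene Elovl7 (listed as CG2781) were 13.9- and 3.95-fold higher. CG9747 had 2623, 2120.4 and 1810.2 normalized counts in the RNAi libraries, against 222, 99.8 and 151 in the control libraries. CG30427, an enzyme by the authors' class, had 3198, 2959 and 2572 normalized counts in the RNAi libraries, against 208, 183 and 207 in the control libraries, a 14.6-fold rise. In the other direction, Fatp, for a fatty acid transport protein, was 3.76-fold lower and the acyl-CoA oxidase gene Acox57D-d 4.72-fold lower. All these genes were chosen after their values were seen, so their directions say nothing of lipid genes as a group.

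Zona pellucida domain proteins anchor the apical matrix to the cell surface, and 3 such genes were listed. The gene cyr had 78.1, 204 and 239 normalized counts in the RNAi libraries, against 1244, 999.96 and 921 in the control libraries, with RNAi 1 the lowest, a 6.07-fold fall. The gene dyl had 11013, 7783 and 10059 normalized counts in the RNAi libraries, against 21028, 19517 and 18855 in the control libraries, a 2.06-fold fall near the limit of the table. In the other direction, qsm had 1469, 1174 and 1278 normalized counts in the RNAi libraries, against 242, 179 and 226 in the control libraries, a 6.07-fold rise. Of the 22 genes on the wider apical matrix list, 5 were lower and 2 higher. The lower ones included trol, the fly perlecan gene, at 2.07-fold. Papilin, encoded by Ppn, is a matrix protein as well and was 3.27-fold lower.

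Osiris genes encode a family of insect membrane proteins expressed in cells that secrete cuticle. They lie together on 3R, and 7 of 25 on the list had an entry, 4 lower and 3 higher. Osi5 had 164, 259 and 380.1 normalized counts in the RNAi libraries, against 1536, 3252 and 2576 in the control libraries, a 9.18-fold fall. Its neighbour Osi6 had 11877, 22419 and 25635 normalized counts in the RNAi libraries, against 48950.0, 59419.7 and 45504 in the control libraries. The next gene, Osi7, had 17945, 10547 and 23415 normalized counts in the RNAi libraries, against 52191, 69061 and 69601 in the control libraries. Osi5, Osi6 and Osi7 follow each other with no other protein-coding gene starting between them (dm6 3R, 6227512 to 6228828 for Osi5 and dm6 3R, 6248994 to 6251683 for Osi7), and all fell. Osi24 had 841, 699 and 912 normalized counts in the RNAi libraries, against 1821, 2205 and 2072 in the control libraries. The adjacent Osi2 (dm6 3R, 6209373 to 6213493) had 19874, 11307 and 7577 normalized counts in the RNAi libraries, against 2222, 1656 and 1437 in the control libraries. These neighbours moved in opposite directions, 2.49-fold lower and 7.29-fold higher, and RNAi 1 was the highest library for Osi2. Osi11 and Osi13 were 3.24- and 5.29-fold higher. The deposited stage of peak expression was day 2 in all of these but Osi13, which had day 3, and 6 of the 7 carry a Blimp-1 site mark, again all but Osi13.

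**Figure D3:**
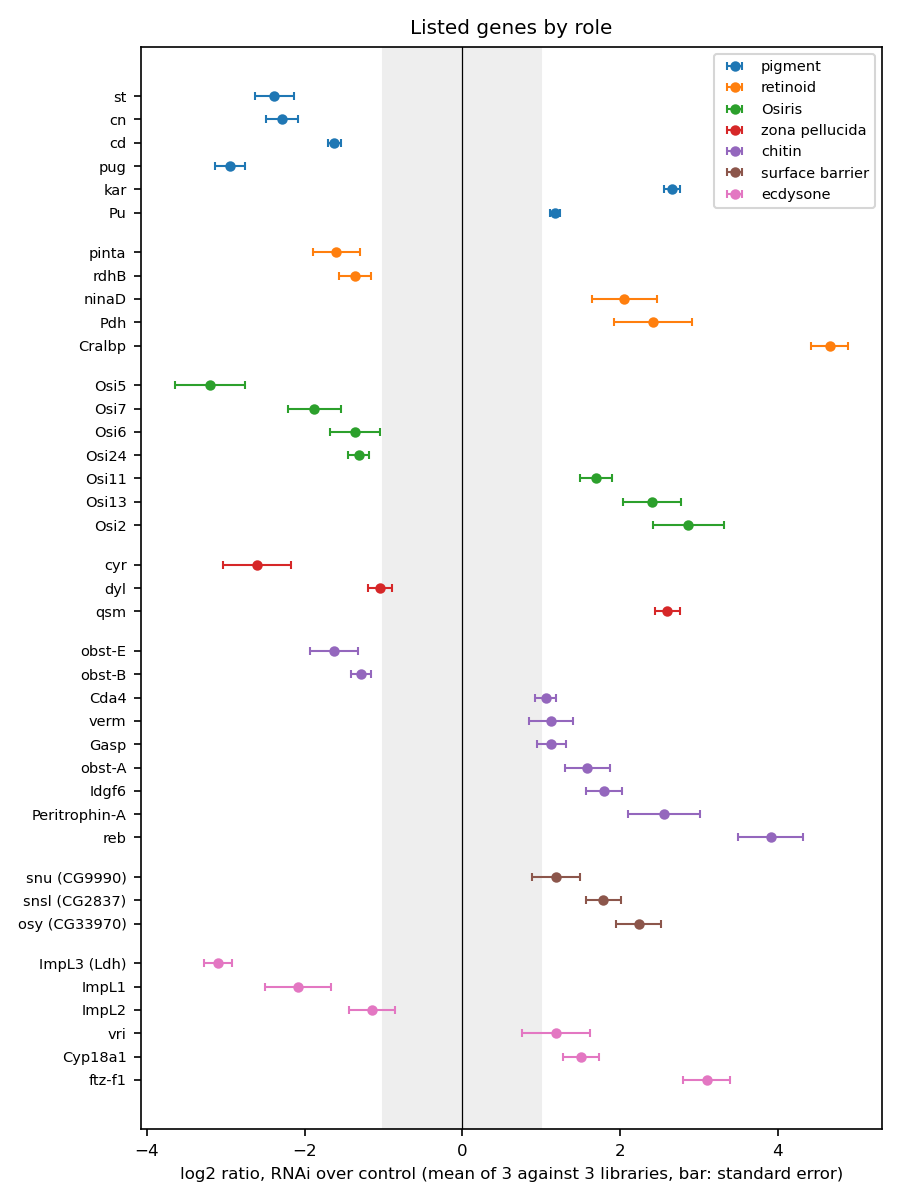
Log2 ratio of RNAi over control (horizontal axis) for listed genes by role, with the standard error of the log2 ratio as a bar (3 libraries against 3) and grey shading over changes under 2-fold, where the tables hold no gene. Pigment, retinoid, Osiris, zona pellucida, chitin and ecdysone genes fall on both sides. The 3 genes of the surface barrier were chosen as higher genes after their values were seen. In the pigment group pug, and in the retinoid group rdhB and Pdh, were also chosen after their values were seen. The retinoid group had no list behind it.

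Of 31 eye pigment genes on the list 3 were lower and 2 higher. The ommochrome precursor transporter gene scarlet (st) had 951, 1745 and 1418 normalized counts in the RNAi libraries, against 7331, 7351 and 6807 in the control libraries. The gene cn, for kynurenine 3-monooxygenase of the same brown pigment pathway, had 677, 695 and 499 normalized counts in the RNAi libraries, against 3643, 2658 and 2804 in the control libraries. The haem peroxidase gene cd had 5809, 5611 and 4959.6 normalized counts in the RNAi libraries, against 17743, 16675 and 15998 in the control libraries. The falls were 5.22-, 4.87- and 3.08-fold. The kynurenine formamidase gene KFase, one step before cn in tryptophan breakdown, was 2.08-fold higher, near the limit. The eye colour gene karmoisin (kar) had 8104, 7756 and 6983 normalized counts in the RNAi libraries, against 1319, 1213 and 1090.3 in the control libraries, a 6.31-fold rise. Punch (Pu), for the GTP cyclohydrolase that starts pteridine synthesis, had 1133, 1237 and 1252 normalized counts in the RNAi libraries, against 530.1, 568 and 510.2 in the control libraries, a 2.25-fold rise. The folate enzyme gene pug, whose mutants have altered eye colour, had 3426, 2760.1 and 2419.9 normalized counts in the RNAi libraries, against 25559.96, 21894 and 18913 in the control libraries, a 7.71-fold fall. Purine synthesis genes also differed in direction. The gene ade2 had 939.98, 647 and 659.8 normalized counts in the RNAi libraries, against 4124, 3536 and 3205 in the control libraries, a 4.84-fold fall. Prat2, for the amidotransferase of the first step, had 67.9, 82.5 and 58.7 normalized counts in the RNAi libraries, against 1.34, 2.88 and 3.74 in the control libraries, a 26.3-fold rise on a control mean of 2.65.

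Genes that handle retinoids, the source of the visual chromophore, also split. Cralbp, for a retinaldehyde-binding protein, had 3168, 2658 and 1804 normalized counts in the RNAi libraries, against 110.2, 94.1 and 97.3 in the control libraries. Its groups lay far apart, with a 25.3-fold rise. Pdh, for a retinol dehydrogenase of retinal pigment cells, had 4388, 12204 and 8515 normalized counts in the RNAi libraries, against 2161, 1011 and 1513 in the control libraries, a 5.36-fold rise with RNAi 1 well below RNAi 2. The scavenger receptor gene ninaD, for carotenoid uptake, had 37.2, 35.2 and 36.6 normalized counts in the RNAi libraries, against 6.72, 5.76 and 13.7 in the control libraries, a 4.16-fold rise, and control 3 was the highest control library. In contrast, rdhB, for a retinol dehydrogenase of the chromophore pathway, had 13717, 18567 and 11865 normalized counts in the RNAi libraries, against 35147, 37656 and 40699.8 in the control libraries. The retinoid-binding protein gene pinta had 17.7, 12.1 and 19.6 normalized counts in the RNAi libraries, against 37.0, 48.9 and 63.6 in the control libraries, with low counts in every library and control 1 the lowest of the control libraries. The falls were 2.57- and 3.03-fold. Chaoptin (chp), a photoreceptor surface protein needed to build the rhabdomere, had 17427, 9602 and 8467 normalized counts in the RNAi libraries, against 28494, 25179 and 26533 in the control libraries, a log2 ratio of -1.18 ± 0.35 (SE), with RNAi 1 the highest RNAi library.

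Cytoskeletal genes, by the authors' class, were almost all lower, with 18 lower and 2 higher (90.0% lower, against 50.7% over all listed genes). Most of these falls were small, at a median of 2.47-fold, and 3 passed 4-fold. Rootletin, encoded by Root and a part of the ciliary rootlet of sensory neurons, had 83.7, 59.5 and 96.9 normalized counts in the RNAi libraries, against 451, 305 and 298 in the control libraries, a 4.39-fold fall. CG3339, annotated here as cytoskeletal, had 6.51, 4.85 and 6.80 normalized counts in the RNAi libraries, against 42.3, 67.2 and 38.7 in the control libraries, an 8.16-fold fall on few counts. Zmynd10, which acts in the assembly of ciliary dynein and stands among transcription factors in the tables, had 31.6, 26.7 and 21.3 normalized counts in the RNAi libraries, against 151, 126 and 139.7 in the control libraries, a 5.24-fold fall. Actin regulators among the lower genes included qua, a villin-like gene, and the formin gene Frl, at 2.30- and 2.08-fold, and the anillin gene scra was 2.29-fold lower. Of 26 sarcomere genes, which mark muscle cells, 3 were listed. The titin-like gene sls had 454, 575 and 787 normalized counts in the RNAi libraries, against 2204, 1744 and 1821 in the control libraries, a 3.18-fold fall. The kinase gene Strn-Mlck had 89.3, 132 and 198 normalized counts in the RNAi libraries, against 558, 502 and 515 in the control libraries, a 3.75-fold fall. Zasp52, of the muscle Z-disc, had 228, 114 and 155 normalized counts in the RNAi libraries, against 44.3, 84.5 and 53.6 in the control libraries, a 2.72-fold rise and one of the 2 cytoskeletal genes that rose. The part of muscle cells in these values was not tested. Root and CG3339 were also the only entries of 28 genes on the list for cilia and rootlets.

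Transporters were listed in nearly even numbers, 15 lower and 12 higher, but with different marks for binding sites, as given further on. A run of neighbouring genes on 3R fell together. CG14855 had 343, 438 and 305 normalized counts in the RNAi libraries, against 974, 1507 and 1073 in the control libraries. CG14856 had 99.5, 82.5 and 77.4 normalized counts in the RNAi libraries, against 609.99, 795 and 586 in the control libraries. CG14857 had 0.930, 1.21 and 1.70 normalized counts in the RNAi libraries, against 49.0, 46.1 and 42.4 in the control libraries. The falls were 3.27-, 7.68- and 35.8-fold along the chromosome (dm6 3R, 14796305 to 14798474 for CG14855 and dm6 3R, 14801773 to 14804342 for CG14857), and reads shared between similar neighbours could not be followed here. Higher transporters included Eglp4, of the aquaporin-related entomoglyceroporins, at 6.76-fold, and CG12164, which averaged 32459 ± 7044 normalized counts in RNAi, against 5728 ± 1964 in control (SD, n = 3).

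Transcription factor genes numbered 7 lower and 9 higher by the authors' class. The bHLH gene taxi (tx) had 58.6, 31.6 and 25.5 normalized counts in the RNAi libraries, against 714, 797 and 634 in the control libraries, with no control library near the RNAi libraries, an 18.6-fold fall. The nuclear receptor gene ftz-f1, the known target of repression by Blimp-1, had 52.1, 40.1 and 47.6 normalized counts in the RNAi libraries, against 4.03, 4.80 and 7.48 in the control libraries. Counts were low in both groups, with an 8.57-fold rise and a log2 ratio of 3.10 ± 0.30 (SE). The other higher members included the bHLH repressor gene hairy (h), the engrailed relative inv and the NF-kappaB gene Dif, at 2.38-, 2.65- and 2.39-fold. The bZIP gene vri had 322, 353 and 741 normalized counts in the RNAi libraries, against 239, 172 and 211 in the control libraries, so that RNAi 3 held more than 2 times the counts of RNAi 1 and RNAi 2, which lay nearer the control libraries.

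Ecdysone pathway genes were listed 3 lower and 3 higher, of 34 on the list. ImpL1, an ecdysone-inducible gene, had 1965, 2224 and 3950.3 normalized counts in the RNAi libraries, against 7439.5, 13274 and 13666 in the control libraries, a 4.22-fold fall. ImpL2, for a secreted protein that binds insulin-like peptides, had 435, 274 and 379 normalized counts in the RNAi libraries, against 998, 584 and 825 in the control libraries, and control 2 was the closest to the RNAi libraries. ImpL3, which encodes lactate dehydrogenase (Ldh), had 49.3, 35.2 and 46.8 normalized counts in the RNAi libraries, against 335, 426 and 362 in the control libraries, an 8.55-fold fall. The higher ones were ftz-f1, vri and Cyp18a1, for an enzyme that inactivates ecdysone. Cyp18a1 had 1267, 869 and 1155 normalized counts in the RNAi libraries, against 476, 331 and 356 in the control libraries, a 2.83-fold rise.

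Secreted proteins and receptors held further signalling genes. Lower genes included the Hedgehog receptor gene ptc, the BMP antagonist gene sog and four-jointed (fj), a Golgi kinase gene of the Fat and Dachsous pathway, at 2.11-, 2.70- and 2.70-fold. The higher genes included the PDGF and VEGF receptor homologue gene Pvr, which had 551, 461 and 519.5 normalized counts in the RNAi libraries, against 108, 117 and 94.8 in the control libraries, a 4.79-fold rise. The innexin gene Inx2 for gap junctions had 9576, 7738 and 9399 normalized counts in the RNAi libraries, against 3436, 3686 and 3691 in the control libraries. The integrin alpha subunit gene inflated (if) had 984, 623 and 843 normalized counts in the RNAi libraries, against 351, 336 and 291 in the control libraries. These rises were 2.47- and 2.51-fold. Members of immune pathways were higher in several cases. GNBP2, of the glucan-binding protein family, had 123, 178 and 162 normalized counts in the RNAi libraries, against 11.4, 6.72 and 6.24 in the control libraries, a 19.0-fold rise. The serine protease gene Hayan, which acts in melanization, the Toll pathway protease gene ea and the TNF gene egr were 8.02-, 4.51- and 2.28-fold higher. In contrast, Tep3 and the peptidoglycan recognition gene PGRP-LB were lower, the second at 3.51-fold. Of the 101 genes on the list of serpins and immunity, 2 were lower and 2 higher, so the rises named here were chosen after their values were seen. A list of 267 odorant-binding protein and chemoreceptor genes had 3 entries, all odorant-binding proteins and all higher. Obp83g had 1783, 2133 and 1268 normalized counts in the RNAi libraries, against 238, 129.6 and 153 in the control libraries, a 9.95-fold rise. Obp99a had 1974, 4442 and 3166 normalized counts in the RNAi libraries, against 1073, 985 and 1221 in the control libraries, a 2.92-fold rise. Genes with cytochrome P450, glutathione transferase and UDP-glycosyltransferase symbols, called detoxification genes here, had 6 lower and 4 higher. This grouping by symbol includes Cyp303a1 and Cyp18a1, for which other roles are given above. Cyp6a20 and Cyp6a2 were 9.57- and 7.58-fold lower, and Cyp4p2 3.05-fold higher.

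No listed gene has a log2 ratio between -1 and 1, so a median over genes of both directions mainly shows which direction has more entries. The lists had median log2 ratios of 1.94 for 8 genes with cuticle protein symbols (3 lower, 5 higher), 1.13 for 9 chitin genes and 0.02 for 6 ecdysone genes. The medians were -1.05 for 7 apical matrix genes, -1.31 for 10 detoxification genes, -1.31 for 7 Osiris genes and -1.62 for 5 pigment genes. Over all 364 listed genes with counts in both groups the median was -1.05. The list for the cornea and lens had 1 entry, dyl, and the lists for bristle and tracheal cells and for tetraspanins shared 1 entry, Tsp42Ed, which was 2.24-fold higher.

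**Figure D4:**
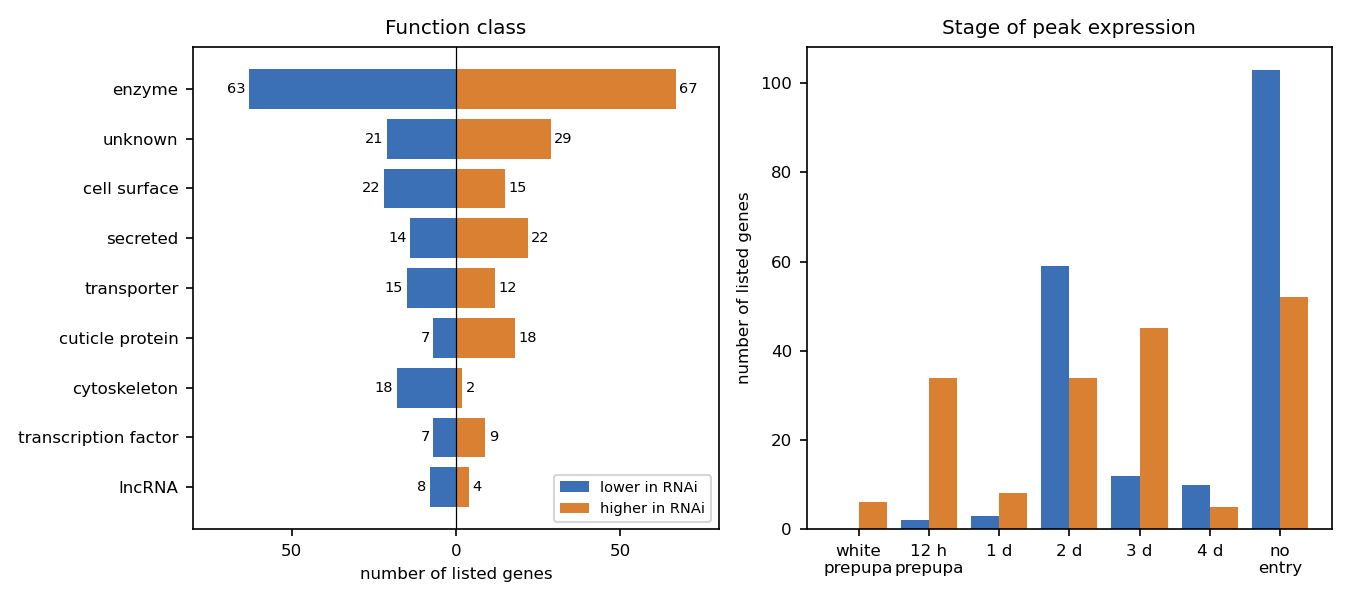
Left, number of listed genes lower and higher in RNAi by the authors' function class, for classes with at least 10 genes. Right, number of listed genes by the deposited stage of peak expression. Cuticle proteins lean to higher and cytoskeletal genes to lower, and the day 2 column is the highest among the lower genes that have an entry.

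The stage at which a gene peaks, as deposited, differed between the directions. Of 86 lower genes with an entry, 59 peaked on day 2 (68.6%, exact binomial 95% interval 57.7 to 78.2), 22 later and 5 earlier. Of 132 higher genes with an entry, 34 peaked on day 2 (25.8%, interval 18.5 to 34.1), 50 later and 48 earlier. The samples were taken at 48 h APF, so day 2 is the stage nearest to them. A gene could be listed lower only with enough counts in control at that age, while a higher gene could have few. The median control mean was 849.4 normalized counts for lower genes and 157.1 for higher genes. The listing itself therefore bears on these shares, and how far it set the split was not tested. The earlier peaks among higher genes were mostly in the late prepupa, with 34 genes higher and 2 lower, and the later ones mostly on day 3, with 45 higher and 12 lower. Day 4 went the other way, with 5 higher and 10 lower. Lower genes with a day 2 peak were abundant in control, with a median mean of 542.1 normalized counts in RNAi, against 2455 in control. No entry was given for 103 lower and 52 higher genes in the RNAi tables, and these shares cover only genes with an entry there. Blank stages were also filled from the overexpression tables, an alternative added after seeing the data. The day 2 shares were then 61.0% of lower and 23.4% of higher genes with an entry. The intervals cover counting only, and genes are not independent.

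Marks for binding sites were nearly as common on each side. A Blimp-1 mark stood on 78 of 189 lower genes (41.3%) and on 80 of 184 higher genes (43.5%). A Slbo mark, for the C/EBP family factor slow border cells, stood on 59 lower (31.2%) and 69 higher genes (37.5%). Both marks stood on 89 genes and neither on 176. The marks were written in capital or small letters, and neither the way sites were assigned nor the meaning of the letters was stated in the sources used here. Small letters were found more on the higher side, for Blimp-1 on 16 higher genes and 1 lower gene and for Slbo on 17 higher and 7 lower.

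Over all listed genes, marks differed more with level and stage than with direction or size. A Blimp-1 mark stood on 26.2% of 42 genes with a mean under 100 normalized counts in their higher group, on 34.7% of 167 genes from 100 to under 1000 and on 54.3% of 164 genes at 1000 or more. The shares of Slbo marks were 14.3%, 31.1% and 42.7% in the same order. Blimp-1 marks stood on 67.8% of lower and 61.8% of higher genes with a day 2 peak, against 27.2% of lower and 23.1% of higher genes with no stage entry. By size of change the Blimp-1 share was 44.6% under 4-fold, 38.1% from 4- to under 16-fold and 44.1% at 16-fold or more or with 1 group at 0. The exception was in genes with under 100 normalized counts in the higher group, where 2 of 22 lower and 9 of 20 higher genes had a Blimp-1 mark. In order of level, the Blimp-1 shares were 9.1%, 35.7% and 55.4% of lower genes, against 45.0%, 33.7% and 53.1% of higher genes. A steady rise with level was thus seen in lower genes only. These shares are descriptions over genes, and level, stage and marks move together here.

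**Figure D5:**
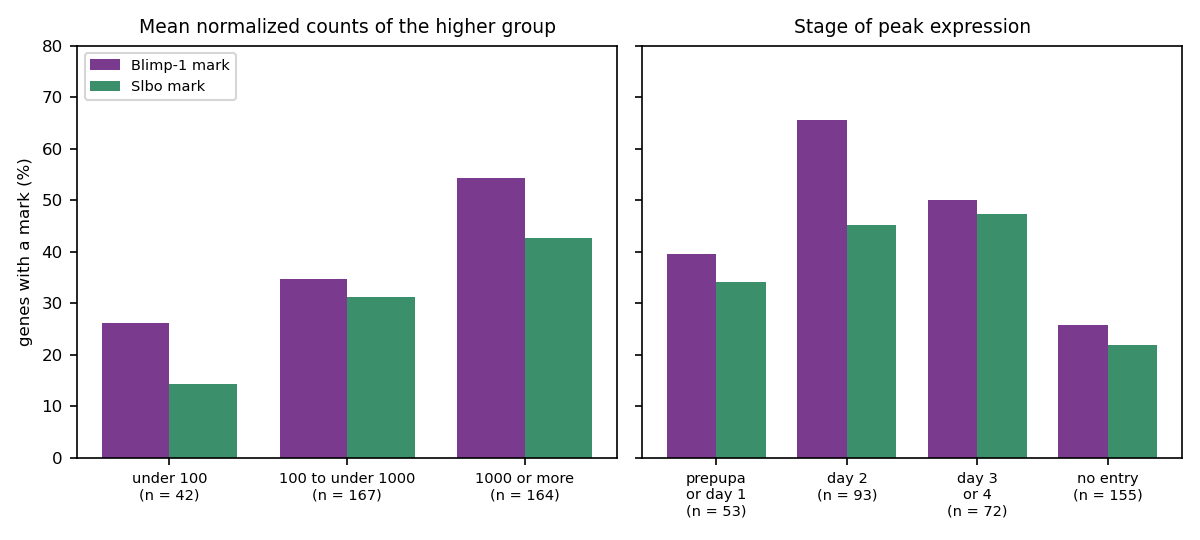
Share of listed genes with a Blimp-1 or Slbo site mark (vertical axis, percent) by the mean normalized counts of the group in which the gene is higher (left) and by the deposited stage of peak expression (right), with the number of genes under each pair of bars. Over both directions, the Blimp-1 share is 26.2% in the lowest level range and 54.3% in the highest.

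Within classes the marks split in places, but not in the largest class. Among enzymes a Blimp-1 mark stood on 38.1% of lower and 37.3% of higher genes, beside 41.3% and 43.5% over all listed genes. A Slbo mark stood on 28.6% of lower and 28.4% of higher enzymes, beside 31.2% and 37.5% over all. None of 15 lower transporters had a mark of either kind, while 5 of 12 higher transporters had a Blimp-1 mark and 5 a Slbo mark. In genes of unknown function a Blimp-1 mark stood on 14 of 21 lower and on 9 of 29 higher. For secreted proteins the counts were 10 of 14 lower and 12 of 22 higher, and for cuticle proteins 4 of 7 lower and 12 of 18 higher. The gene ftz-f1 carried both marks, and CG42367 and CG17777 carried neither.

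Both directions were found on X, 2L, 2R, 3L and 3R, and chromosome 4 held 1 lower gene. Of 369 genes placed on dm6, X held 24 lower and 25 higher, 2L 25 and 27, 2R 45 and 43, 3L 41 and 40 and 3R 51 and 47. Neighbouring protein-coding genes, with no other protein-coding gene starting between them, formed 20 runs of 42 genes. All members were lower in 7 runs and higher in 8, and directions were mixed in 5. The meiotic gene rec had 10.2, 18.2 and 19.6 normalized counts in the RNAi libraries, against 191, 179 and 137 in the control libraries. CG4576, which lies inside the span of rec on the other strand, had 415, 529 and 476 normalized counts in the RNAi libraries, against 63.8, 40.3 and 52.4 in the control libraries. They moved in opposite directions, and since the strand setting of the counting was not stated, their reads could not be told apart with certainty.

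Some genes were also listed for overexpression, which was compared with the same control libraries, so the values are given only side by side. Of the 373 genes 179 had such an entry. Of 91 higher genes with an entry, 78 were listed higher and 13 lower in overexpression, and of 88 lower genes 61 were listed lower and 27 higher. The split of all 710 genes listed for overexpression was not set beside these counts. With that and the shared control libraries, the counts do not show a shared response. Of 9 higher cuticle proteins with an entry, 6 were listed higher and 3 lower in overexpression. Osi5 and Osi6 were listed lower in both, and Osi11 and Osi13 higher in RNAi and lower in overexpression. Osi11 averaged 18699 normalized counts in RNAi, 1215 in overexpression and 5775 in control. For verm the means were 25890.3 in RNAi, 3248 in overexpression and 11834 in control. ImpL1 went the other way, with means of 2713 in RNAi, 151516 in overexpression and 11459.7 in control. For Pu, higher in both, the means were 1208 in RNAi, 33029 in overexpression and 536 in control.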

How the data were processed

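Stranded mRNA libraries of 3 RNAi and 3 control samples were compared. The genome build was dm6, and DESeq2, bedtools 2.26.0, Subread 1.6.3, Picard 2.18.20 and STAR 2.6.1d were used, per the submitters' processing notes, and no source used here gives their settings. For each listed gene the authors deposited normalized counts per library (a signal, not whole counts), the log2 of a fold change and a p-value adjusted for multiple tests. The deposited log2 values were control over RNAi and were turned around here. The control columns were matched to the libraries labelled WT.

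Low values were whole multiples of 1 step per library in 100% of cases, within 0.1 reads. Too few low values stood in the RNAi columns for the reads to be taken as recovered, so the planned count tests with edgeR and DESeq2 were not run. Means, SDs and ratios of means used no pseudocount, and the SE of a log2 ratio came from both SDs. Limma 3.58.1 in R 4.3.3 was run on log2(value + 1) over the 373 genes, with Benjamini-Hochberg adjustment, and was tested on simulated data. Intervals of shares are exact binomial intervals. Identifiers of 369 genes were placed with the Ensembl annotation of the same assembly, and promoter motifs were not searched because no sequence was used here.

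The genes, classes and 19 gene lists were chosen with earlier results of these data known. The rule for named genes took the 3 largest changes per function class and direction at a mean of at least 20 normalized counts, per table the 5 largest differences of means and the 5 smallest adjusted p-values, up to 6 listed members per list and the 3 genes nearest the limit per table. Genes named beyond it, such as pug, Pdh, rdhB and Pvr, were chosen after their values were seen. Alternatives covered the pseudocount, low values, the size of change, medians, single libraries, blank stages and the letter case of marks. Nothing in the labels says how the 3 biological replicates were drawn, so p-values measure the spread between these libraries.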

Additional observations from a re-analysis of the deposited data

How the results depend on the processing

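All 373 genes kept their direction under the pseudocount, the median of 3 libraries and every single library left out, and limma called all 373 in these pseudocount and single-library settings. The filter on low values left 361 genes, all called with their direction kept. These genes had been selected on the same libraries. No gene had overlapping libraries, so these settings could not reverse a direction. The kept directions are therefore no check of the list. Without 1 library at a time, 181 to 188 lower genes and 176 to 184 higher genes kept a recomputed change of at least 2-fold. The median log2 ratio of higher genes was 1.92 with the median of 3 libraries, 1.83 as reported, and 1.81 to 1.95 without 1 library. That of lower genes was -1.76 to -1.65 without 1 library. The setting for large changes took genes changed at least 4-fold or with 1 group at 0. There the share of lower genes was 100% for cytoskeletal genes, which rests on 3 genes, and 23.1% for secreted proteins. Of its higher genes with a stage entry 18.3% had a day 2 peak. With capital marks only, an alternative chosen after seeing the data, 34.8% of higher genes had a Blimp-1 mark and 28.3% a Slbo mark. For lower genes these shares were 40.7% and 27.5%, so which direction had more Blimp-1 marks depended on the letter case. Of 106 values recomputed for the main results 98 moved little, but part of them could not move. A filter on libraries not overlapping kept all 373 genes and so changed nothing. The count of such genes was likewise fixed when single libraries were left out. The 98 are thus no measure of stability. Of the log2 ratios of named genes 3 moved by more than the spread between replicates, for CG13675, CG14857 and Esp with log2(value + 1).

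With the replicate number as a block, limma still called 373 genes, with a largest adjusted p of 0.0129. This replicate block fit was added after seeing the data in place of one with edgeR. Deviations of same-numbered RNAi and control libraries from their group means correlated at 0.335, 0.076 and 0.061 across 361 genes. The deviations of the 3 libraries of a group are tied through their mean, so these correlations cannot decide whether the numbers pair the libraries. RNAi 1 correlated best with control 1, but RNAi 2 with control 3 and RNAi 3 with control 2. The edgeR fits, with and without TMM factors and the block, and the DESeq2 fit were not run. Limits are the missing values of unlisted genes, the unknown total depth and the 3 libraries per group.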

Other observations

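The deposited log2 fold changes lay closer to 0 than the ratio of group means by more than 0.1 in 95 of the 373 genes and farther from 0 by more than 0.1 in none. The largest gap was in CG30043, at 2.07 on the log2 scale. No gene of the RNAi tables had a count of 0 in only 1 or 2 libraries of a group, whereas 4 genes of the overexpression tables did so in overexpression and 16 in control. The median coefficient of variation was 21.7% in RNAi and 19.5% in control over the genes of the RNAi tables.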
